A study of Mus musculus with 32 samples.

Results

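The measurements described here are the response of mouse lung endothelial cells (EC) to tumor necrosis factor (TNFα) after their DNA methyltransferase Dnmt1 had been silenced. The members were chosen by label: 4 libraries of the group si-dnmt + TNF were set against 4 libraries of the group si-dnmt, 8 of the 32 libraries of the series. All cells were of the Veravec line, a mouse lung EC line, and every cell in both groups had been transfected with siRNA against Dnmt1 for 4 h, a step that was repeated 24 h later. The group si-dnmt + TNF then received TNFα at 10 ng/mL for 16 h, and the group si-dnmt received no cytokine. The most similar comparison in the series used the same cells and dose after control siRNA (si-control + TNF against si-control, 4 libraries each) and shared no library with the first. The title of si-dnmt + TNF replicate 1 spells the siRNA as si-dnmtl. The data are bulk RNA-seq of 1 cell line in culture, so a lower transcript level cannot be told apart from fewer cells carrying it. The labels call the libraries biological replicates but do not say whether they came from separate cultures, and the p-values measure only the spread between these libraries.

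TNFα binds its receptors on EC and, through TRAF adaptors and the IκB kinase complex, releases NF-κB subunits into the nucleus, where they switch on adhesion molecules, chemokines, survival genes and their own inhibitors. In vessels this program lets leukocytes roll, adhere and cross the endothelium, and it is accompanied by lower expression of many genes of the resting vessel wall. Dnmt1 copies DNA methylation onto newly made DNA strands, and the comparison asks which genes still respond to TNFα, and by how much, in cells depleted of it.

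Levels are given as CPM, counts scaled to library size with the trimmed mean of M values (TMM), and 4 values in a row belong to replicates 1 to 4. A gene is called higher or lower where edgeR's quasi-likelihood test gave a Benjamini-Hochberg adjusted p under 0.05 over the 15250 genes tested, and the ± after a log2 fold change is its standard error. Total counts were 21312850 to 26901175 in si-dnmt and 17952470 to 20427099 in si-dnmt + TNF. Dnmt1 was at 10.3, 12.4, 6.45 and 6.53 CPM in si-dnmt and 16, 15, 6.96 and 9.2 CPM in si-dnmt + TNF, against 90.1, 89.1, 153 and 148 CPM in si-control and 157, 156, 185 and 189.8 CPM in si-control + TNF. Every library labelled si-dnmt was therefore below every library labelled si-control, and TNFα did not move Dnmt1 past the threshold in silenced cells (log2 fold change 0.41 ± 0.35, adjusted p = 0.463). In replicates 1 and 2 alone, a set described below, its rise passed the edgeR test (0.45, adjusted p = 0.00527). The 10 endothelial markers were all detected, with a summed level of 5334 to 8041 CPM in si-dnmt and 3283 to 4879 CPM in si-dnmt + TNF. Of the other marker lists, 10 epithelial genes summed to 10.1 to 23.4 and 5.86 to 12.4 CPM, 10 fibroblast genes to 18.1 to 36.7 and 14.7 to 33.9 CPM, and 10 leukocyte genes to 140 to 187 and 78.6 to 145 CPM in the same order. The leukocyte sum was carried by Lyz2 and Cd68, while Cd3e was at 0 and the means of Ptprc were 0.0334 and 0.0115 CPM. The 10 pericyte and smooth muscle genes summed to 40.4 to 186 CPM in si-dnmt and 67.0 to 145 CPM in si-dnmt + TNF, almost all of it Acta2. The libraries fell into 2 sets that the labels do not name, replicates 1 and 2 and replicates 3 and 4: within the si-dnmt groups, chi-square per degree of freedom between libraries was 6.16 to 11.7 inside a set and 49.6 to 86.4 across sets. Key values are therefore also given for each set alone.

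Promoters of responding genes that hold an NF-κB site by sequence are shown first, since NF-κB is the factor through which TNFα is best known to act. Exact 10-base forms of the NF-κB site were searched on both strands from 250 bases before to 50 bases after each transcription start in RefSeq, build GRCm38.p6. Promoters of a chromosome were left out of the search. Of 126 genes named by rule, 85 had a promoter among those searched and 6 of them held such a site. Among all promoters searched, 102 of 32851 (0.31%) held one. The 6 are genes, some with several promoters possible, and were chosen with results of these data known, whereas the 102 are promoters. No enrichment can be read from setting them side by side. The share among all genes called at least 2-fold higher (582, 3.82% of those tested) or lower (409, 2.68%) is not given, since a promoter was matched by symbol for only 384 and 279 of them. The 250 bases before the start of the 6 genes are shown 5′ to 3′ on the strand of the gene, with the matching bases in capitals. The 4 forms searched can be read there: they are the capitals of Nfkbia, the capitals of Cxcl10, the first 10 capitals of Cxcl1 (the reverse complement of the form in Nfkbia, so that these forms overlap) and the reverse complement of the capitals of Csf1, which Ltb and Madcam1 share.
Nfkbia, inhibitor of NF-κB (chr12:55492648-55492897, minus strand): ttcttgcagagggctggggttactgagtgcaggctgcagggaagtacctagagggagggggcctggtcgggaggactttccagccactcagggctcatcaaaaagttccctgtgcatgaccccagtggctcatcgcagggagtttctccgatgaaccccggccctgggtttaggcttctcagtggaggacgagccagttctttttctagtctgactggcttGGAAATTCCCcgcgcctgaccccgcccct
Cxcl1, neutrophil chemokine (chr5:90890995-90891244, plus strand): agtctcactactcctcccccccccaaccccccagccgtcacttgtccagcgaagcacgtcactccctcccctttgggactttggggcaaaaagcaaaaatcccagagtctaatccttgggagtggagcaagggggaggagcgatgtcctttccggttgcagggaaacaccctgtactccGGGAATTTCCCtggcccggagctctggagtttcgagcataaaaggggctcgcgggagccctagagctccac
Cxcl10, T-cell chemokine (chr5:92348890-92349139, minus strand): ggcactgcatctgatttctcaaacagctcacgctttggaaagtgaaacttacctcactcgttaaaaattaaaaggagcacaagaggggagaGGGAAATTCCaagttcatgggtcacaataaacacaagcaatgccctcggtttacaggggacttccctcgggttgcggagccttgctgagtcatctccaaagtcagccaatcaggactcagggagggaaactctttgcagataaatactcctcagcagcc
Csf1, macrophage growth factor (chr3:107760470-107760719, minus strand): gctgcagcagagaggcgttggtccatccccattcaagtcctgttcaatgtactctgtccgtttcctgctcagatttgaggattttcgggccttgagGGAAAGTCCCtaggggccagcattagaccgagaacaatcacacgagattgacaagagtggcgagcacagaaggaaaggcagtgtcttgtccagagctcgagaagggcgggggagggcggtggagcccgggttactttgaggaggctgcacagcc
Ltb, lymphotoxin beta (chr17:35194257-35194506, plus strand): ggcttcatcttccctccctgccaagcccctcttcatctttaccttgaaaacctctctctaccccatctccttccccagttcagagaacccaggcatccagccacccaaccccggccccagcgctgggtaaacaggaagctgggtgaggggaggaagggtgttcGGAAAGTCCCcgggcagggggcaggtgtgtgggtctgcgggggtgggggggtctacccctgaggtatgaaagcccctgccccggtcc
Madcam1, adhesion molecule (chr10:79664309-79664558, plus strand): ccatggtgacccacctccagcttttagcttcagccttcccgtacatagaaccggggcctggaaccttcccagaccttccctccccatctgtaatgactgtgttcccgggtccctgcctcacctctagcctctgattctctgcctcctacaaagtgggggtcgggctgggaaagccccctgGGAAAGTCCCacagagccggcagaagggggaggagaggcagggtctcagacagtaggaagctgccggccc
Counted from the first base of the start at position 0, the first matching base lay at −29 for Nfkbia, −154 for Csf1, −159 for Cxcl10, −87 for Ltb and −70 for Madcam1, and Cxcl1 held overlapping matches at −71 and −70. All 6 genes were called higher with TNFα in silenced cells (values below with their groups). A match describes the letters only, and binding was not measured.

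TNFα changed 3212 genes in silenced cells, 21.1% of those tested: 1757 (11.5%) were higher and 1455 (9.54%) lower, and the median log2 fold change over all genes was 0.01. Rises were the larger changes. At least 4-fold rises numbered 265 and falls of that size 125, and at least 16-fold rises numbered 67 against 12 falls. When the replicate number entered the fit as a block, 5234 genes were called (34.3%), 2720 higher (17.8%) and 2514 lower (16.5%). The counts of list members given below are to be read beside these shares over all genes, without or with the block. Without any single library, the count ran from 2301 to 2995. In replicates 1 and 2 alone 5428 genes were called (35.3%, 19% higher and 16.4% lower) and in replicates 3 and 4 alone 3813 (25.1%, 13.1% higher and 12% lower), and 2887 of the genes tested in both sets were called in both with the same sign.

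Vcam1, Icam1, Sele and Madcam1, adhesion molecules that capture leukocytes, rose, while Selp did not pass the test. Vcam1, the ligand of the integrin α4β1 on T cells, was at 91.4, 103, 139.8 and 119.6 CPM in si-dnmt and 1025, 946, 954 and 895 CPM in si-dnmt + TNF, a log2 fold change of 3.07 ± 0.12 (adjusted p = 6.29e-17). Icam1, which binds β2 integrins, went from 440.0, 458, 358 and 317 to 1024, 994, 901 and 954 CPM (1.30 ± 0.22, adjusted p = 7.54e-05). Sele, the selectin on which leukocytes roll, went from 54, 65.5, 63.5 and 64.4 to 152, 136, 111 and 124 CPM (1.08 ± 0.24, adjusted p = 0.00198). For these 3 genes every treated library lay above every untreated one, and the log2 fold changes in replicates 1 and 2 and in replicates 3 and 4 were 3.35 and 2.83 for Vcam1, 1.17 and 1.46 for Icam1, and 1.27 and 0.88 for Sele. Madcam1, the ligand of the gut-homing integrin α4β7, rose from 0.223, 0.0855, 0.0341 and 0.0695 to 20.8, 18.4, 3.78 and 4.22 CPM (6.84 ± 0.99, adjusted p = 9.35e-06, and 7.45 without si-dnmt replicate 1), and it was higher in the treated libraries of the first set than of the second. Selp, the selectin stored in Weibel-Palade bodies, took no single direction: it was at 1006, 1011, 575 and 585 CPM in si-dnmt and 565, 533, 695 and 696 CPM with TNFα (−0.35 ± 0.22, adjusted p = 0.279). Its log2 change was −0.87 (adjusted p = 4.03e-07) in replicates 1 and 2 and 0.26 (adjusted p = 0.0106) in replicates 3 and 4. Of 21 leukocyte adhesion molecules tested, 5 were higher and 6 lower, with a median of −0.19. Jam2, a junctional adhesion molecule, was among the lower ones (−1.71 ± 0.46, adjusted p = 0.00892).

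**Figure D1:**
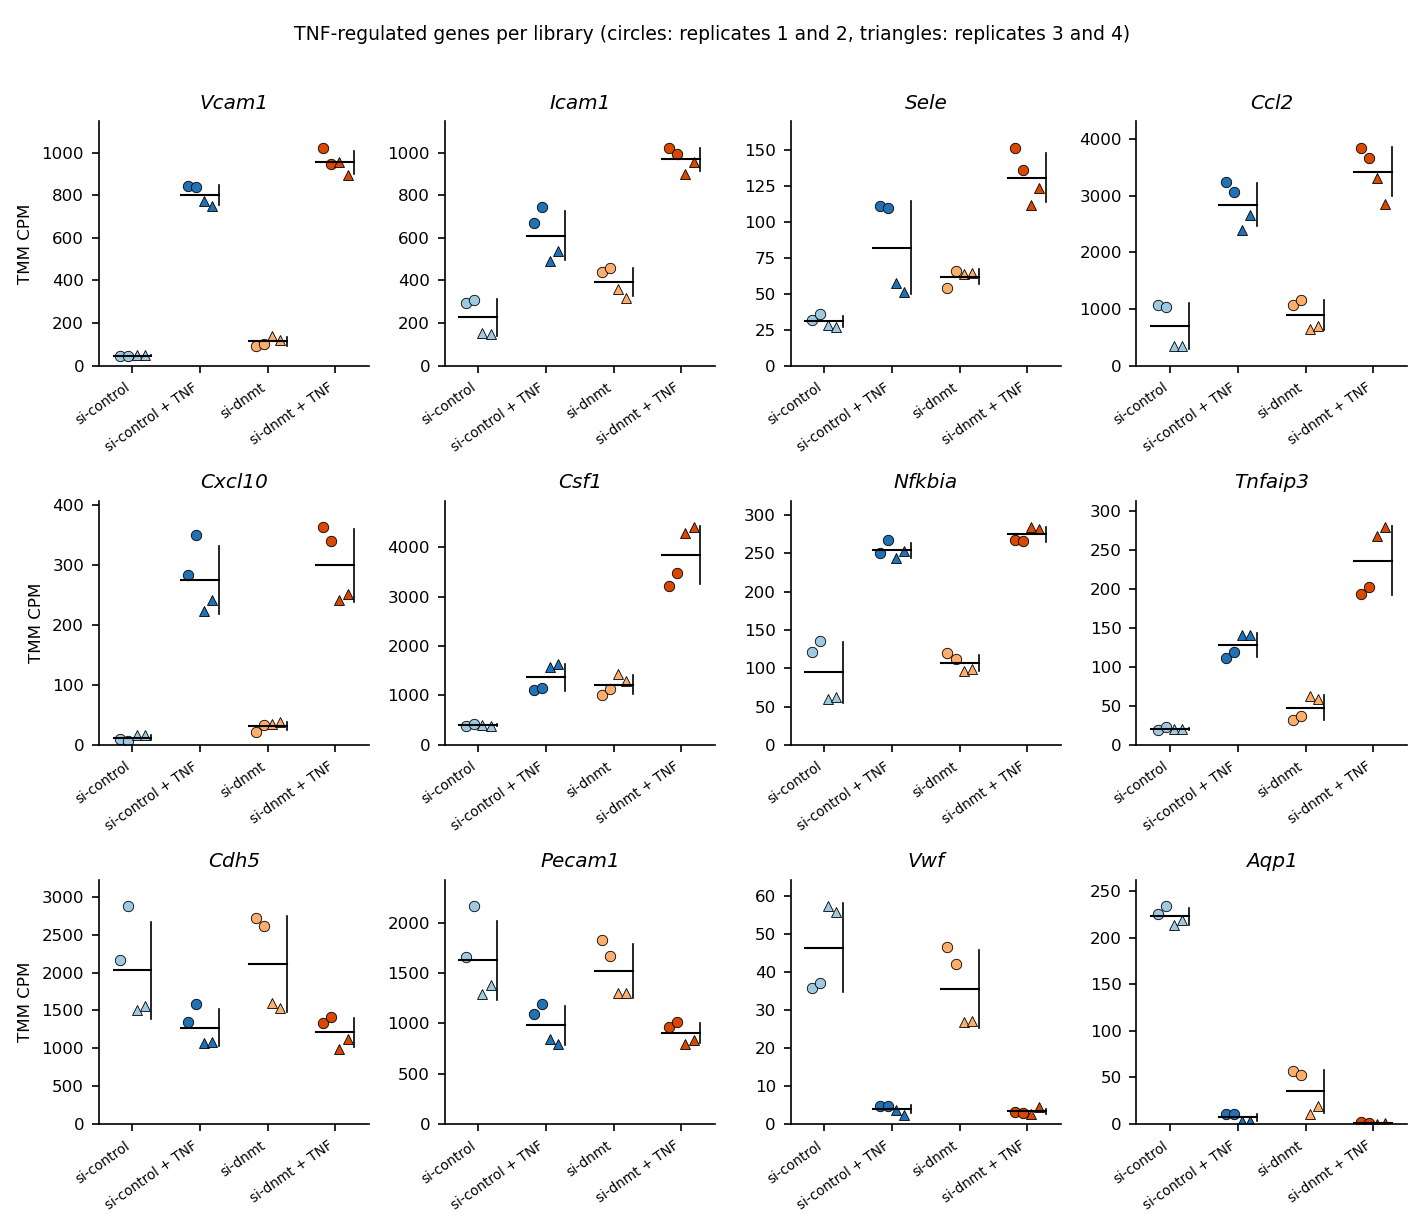
TMM-scaled CPM of 12 genes in each library of si-control, si-control + TNF, si-dnmt and si-dnmt + TNF (circles, replicates 1 and 2, triangles, replicates 3 and 4, line and bar, mean ± SD of 4 libraries). In silenced cells the treated libraries of Vcam1 (895 to 1025 CPM) lie above the untreated ones (91.4 to 139.8 CPM), and those of Vwf (2.72 to 4.37 CPM) lie below (26.8 to 46.5 CPM).

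Chemokines made up the group with the largest typical rise among the lists of secreted factors. Of 21 tested (of 32 listed), 17 were higher and 1 lower, with a median log2 fold change of 2.71. Ccl5, which recruits T cells and monocytes, rose from 5.38, 5.3, 5.39 and 7.05 to 288, 264, 147 and 104 CPM (5.12 ± 0.41, adjusted p = 3.96e-10). Ccl20, the ligand of CCR6, rose from 0.534, 1.2, 1.4 and 0.973 to 56.2, 58, 26.6 and 19.7 CPM (5.27 ± 0.46, adjusted p = 1.52e-09). Ccl2, the main monocyte attractant, was abundant before treatment and went from 1076, 1155, 640.4 and 708 to 3852, 3674, 3312 and 2862 CPM (1.94 ± 0.31, adjusted p = 3.53e-05). No treated library of these genes overlapped an untreated one, although the treated levels of Ccl5 and Ccl20 were lower in the second set.

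The ligands of CXCR3, the receptor on activated T cells, rose together. Cxcl10 went from 21.7, 33.3, 33.8 and 37.4 to 363, 339, 241 and 252 CPM (3.24 ± 0.30, adjusted p = 4.57e-09), Cxcl9 from 1.34, 2.35, 0.682 and 0.487 to 32.2, 31.7, 7.43 and 8.02 CPM (4.07 ± 0.61, adjusted p = 1.56e-05) and Cxcl11 from 0.356, 0.556, 0.375 and 0.313 to 20.5, 16.8, 11.6 and 10.8 CPM (5.22 ± 0.68, adjusted p = 2.18e-06). Cxcl1, a neutrophil attractant, rose from 43.2, 47.7, 118 and 78.1 to 158, 194, 401 and 338 CPM (1.92 ± 0.43, adjusted p = 0.00164). The membrane-bound chemokine Cx3cl1, which tethers CX3CR1-bearing leukocytes, rose from 27.7, 35.5, 51 and 39.4 to 143, 137, 175 and 193 CPM (2.08 ± 0.19, adjusted p = 2.71e-09). Within the sets, Cxcl9 ended at a level several times higher in replicates 1 and 2 than in replicates 3 and 4, whereas its log2 fold changes were 4.11 and 3.71.

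Of 18 cytokines and colony-stimulating factors tested, 10 were higher and 1 lower (median 1.47). Csf1, the growth factor of macrophages, was the most abundant of those named, at 1008, 1122, 1435 and 1297 CPM before and 3217, 3472, 4282 and 4411 CPM with TNFα (1.66 ± 0.14, adjusted p = 6.5e-10). Csf2, the granulocyte-macrophage factor, rose from 0.178, 0, 0.273 and 0.487 to 2.93, 3.14, 6.96 and 4.37 CPM (4.13 ± 0.56, adjusted p = 3.52e-06, and 4.75 without si-dnmt replicate 4). Il27 and Ebi3 encode the subunits of interleukin 27 and rose by 4.23 ± 0.43 (adjusted p = 3.53e-08, and 4.81 without si-dnmt replicate 3) and 3.32 ± 0.50 (adjusted p = 1.59e-05). Il34, a second ligand of the CSF1 receptor, rose by 2.99 ± 0.41 (adjusted p = 4.08e-06). Il6 did not pass the test, at 12.5, 18.3, 5.73 and 8.48 CPM in si-dnmt and 15.3, 15.6, 13.1 and 13.3 CPM with TNFα (0.35 ± 0.72, adjusted p = 0.793). Its change was 0.01 in replicates 1 and 2 and 0.89 (adjusted p = 0.000215) in replicates 3 and 4, so that the groups overlapped in the first set only.

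Inhibitors of NF-κB were among the genes that rose. Of 26 NF-κB subunits and regulators tested, 14 were higher and 0 lower by edgeR, with a median of 0.56. At an unadjusted p under 0.05, 0 were lower, and DESeq2 also called 0 lower. Nfkbia, which holds NF-κB in the cytoplasm, went from 119.8, 112, 97 and 99.6 to 268, 266, 285 and 282 CPM (1.36 ± 0.22, adjusted p = 4.83e-05). Tnfaip3, the ubiquitin-editing enzyme A20, went from 31.9, 36.8, 63 and 58.9 to 193, 203, 268 and 279.6 CPM (2.31 ± 0.18, adjusted p = 2.25e-10). Tnip3, which binds A20, was almost silent before treatment, and its counts rose 145-fold (95% exact counting interval 39.7 to 1204), from 0, 0.0428, 0 and 0.0348 to 3.07, 3.33, 1.94 and 2.83 CPM. Relb, a subunit of the non-canonical pathway, rose by 1.51 ± 0.18 (adjusted p = 3.19e-07) and Nfkbie, another inhibitor, by 1.76 ± 0.21 (adjusted p = 4.48e-07).

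Of 20 TNF receptors, adaptors and survival genes tested, 9 were higher and 1 lower (median 0.44). Birc3 and Birc2, ubiquitin ligases of the receptor complex, rose by 1.55 ± 0.22 (adjusted p = 7.98e-06) and 1.14 ± 0.17 (adjusted p = 2.09e-05), Traf1, an adaptor, by 1.05 ± 0.17 (adjusted p = 3.25e-05), and Gadd45b, a stress-response gene, by 1.53 ± 0.15 (adjusted p = 2.75e-08). Of 20 other TNF family ligands and receptors tested (of 30 listed), 10 were higher and 1 lower (median 0.75). Tnfsf4, which encodes OX40L, rose from 21.2, 17.1, 21.2 and 19.4 to 45.4, 55.9, 64.1 and 64.1 CPM (1.54 ± 0.21, adjusted p = 3.51e-06). Ltb was at 0, 0.171, 0.205 and 0.174 CPM before and 7.97, 8.64, 1.8 and 0.771 CPM with TNFα (5.02 ± 0.86, adjusted p = 9.54e-05), again higher in the first set. Tnf itself rose to 1.05, 1.83, 0.6 and 0.566 CPM from 0, 0.171, 0 and 0.0348 CPM (4.22 ± 0.73, adjusted p = 0.000148, and 5.80 without si-dnmt replicate 2).

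Among ligands that a T cell reads on its partner, 6 of 18 were higher and 1 lower (median 0.29). Icosl, the ligand of ICOS, went from 0.0445, 0.0855, 0.478 and 0.104 to 6.55, 6.43, 9.55 and 9.15 CPM (5.35 ± 0.46, adjusted p = 1.19e-09, and 6.53 without si-dnmt replicate 3). Cd40, the receptor for T-cell help, went from 1.34, 1.33, 2.32 and 2.12 to 5.54, 4.83, 5.4 and 4.68 CPM (1.51 ± 0.29, adjusted p = 0.000408). Cd274, which encodes the inhibitory ligand PD-L1, went from 23.6, 23.3, 21.5 and 22.3 to 92.2, 98.6, 72.9 and 74.1 CPM (1.90 ± 0.25, adjusted p = 1.81e-06). Stimulatory and inhibitory ligands thus rose in the same libraries, and none of these 3 genes had overlapping groups.

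The genes of class I antigen presentation, which show cytosolic peptides to CD8+ T cells, had the highest share of members called higher among the 24 lists. Of 24 tested, 21 were higher and 0 lower by edgeR (0 lower at an unadjusted p under 0.05 and 0 by DESeq2), with a median of 1.27. Psmb9 and Psmb8, subunits of the immunoproteasome, went from 11.4, 10.4, 6.31 and 8.62 to 54, 54.3, 37.5 and 30.7 CPM (2.27 ± 0.19, adjusted p = 6.73e-10) and from 34.1, 32.2, 16.6 and 23.9 to 138, 143, 81.4 and 58.2 CPM (1.98 ± 0.26, adjusted p = 2.84e-06). H2-Q6 and H2-Q7 had the largest rises of the list, 4.29 ± 0.65 (adjusted p = 1.83e-05) and 3.86 ± 0.54 (adjusted p = 6.21e-06), but they are near-identical copies, and counting may split reads between them.

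Most interferon-stimulated effectors rose although no interferon was added. Of 55 tested, 43 were higher and 0 lower by edgeR (0 lower at an unadjusted p under 0.05 and 0 by DESeq2), with a median of 0.96, and 53 were higher within each set. Guanylate-binding proteins, GTPases that attack intracellular pathogens, led the list: Gbp4 went from 15.8, 14.2, 7.81 and 10.1 to 97, 115, 52.7 and 61.9 CPM (2.77 ± 0.26, adjusted p = 6.28e-09), and Gbp8, Gbp10 and Gbp11 rose by 2.47, 2.67 and 3.25 (adjusted p = 1.28e-08, 4.64e-07 and 0.00157). Among 25 genes of interferon signalling, 11 were higher and 0 lower by edgeR (1 lower at an unadjusted p under 0.05 and 1 by DESeq2), with a median of 0.34, and 4 were lower with the replicate block. Irf1, a transcription factor induced by inflammatory cytokines, went from 61.9, 55.9, 41.6 and 44.2 to 171, 167, 149 and 142 CPM (1.63 ± 0.15, adjusted p = 2.84e-09). Irf5 and Batf2, 2 further transcription factors, rose by 3.04 ± 0.25 (adjusted p = 7.71e-10) and 3.02 ± 0.27 (adjusted p = 2.25e-09), and Socs1, a brake on JAK-STAT signalling, by 1.36 ± 0.26 (adjusted p = 0.000395).

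Class II antigen presentation, which shows peptides to CD4+ T cells and is normally driven by interferon γ, appeared at low levels and differed between the sets. Of 13 tested, 8 were higher and 0 lower by edgeR (1 lower at an unadjusted p under 0.05 and 0 by DESeq2), with a median of 3.65. Cd74, the invariant chain, was at 0.089, 0.128, 0 and 0.0348 CPM in si-dnmt and 23, 19, 3.14 and 2.67 CPM in si-dnmt + TNF, and its counts rose 211-fold (95% exact counting interval 96.7 to 577). Ciita, the coactivator that turns class II genes on, went from 0.0445, 0, 0 and 0.0348 to 4.17, 4.83, 0.692 and 0.411 CPM, 134-fold (36.6 to 1112). H2-Aa and H2-Ab1, the chains of the I-A molecule, reached 4.39, 2.58, 0.231 and 0.309 and 2.84, 2.58, 0.231 and 0.154 CPM from at most 1 count in any untreated library, 200-fold (35.4 to 7939) and 154-fold (27.2 to 6137). In every case replicates 1 and 2 reached levels that were several times those of replicates 3 and 4, and the adjusted p was 4.48e-06 for Cd74, 0.000281 for Ciita, 0.00741 for H2-Aa and 0.00698 for H2-Ab1. The median over the list was 4.09 in the first set and 1.74 in the second. The same split was seen for Saa3, an acute-phase gene, with 19.1, 16.9, 1.25 and 0.823 CPM under TNFα from 0.089, 0.257, 0.0341 and 0 CPM (6.67 ± 1.32, adjusted p = 0.000522, and 7.78 without si-dnmt replicate 2 and 6.08 without si-dnmt + TNF replicate 1), and for C3, the central complement component, with 309.9, 256, 47.5 and 34.4 CPM before and 1273, 1212, 426 and 443 CPM after. The log2 fold change of C3 was 2.37 ± 0.84 (adjusted p = 0.0433). This call was lost on leaving out si-dnmt replicate 2, si-dnmt replicate 3, si-dnmt replicate 4, si-dnmt + TNF replicate 1 or si-dnmt + TNF replicate 2, with values of 2.04 to 2.68. Leaving out 1 library moved the fitted log2 fold change of H2-Aa from 6.94 to 8.32 without si-dnmt replicate 3 and 6.09 without si-dnmt + TNF replicate 1, and that of H2-Ab1 from 6.57 to 7.97 without si-dnmt replicate 1. The counting intervals above cover counting error only.

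**Figure D2:**
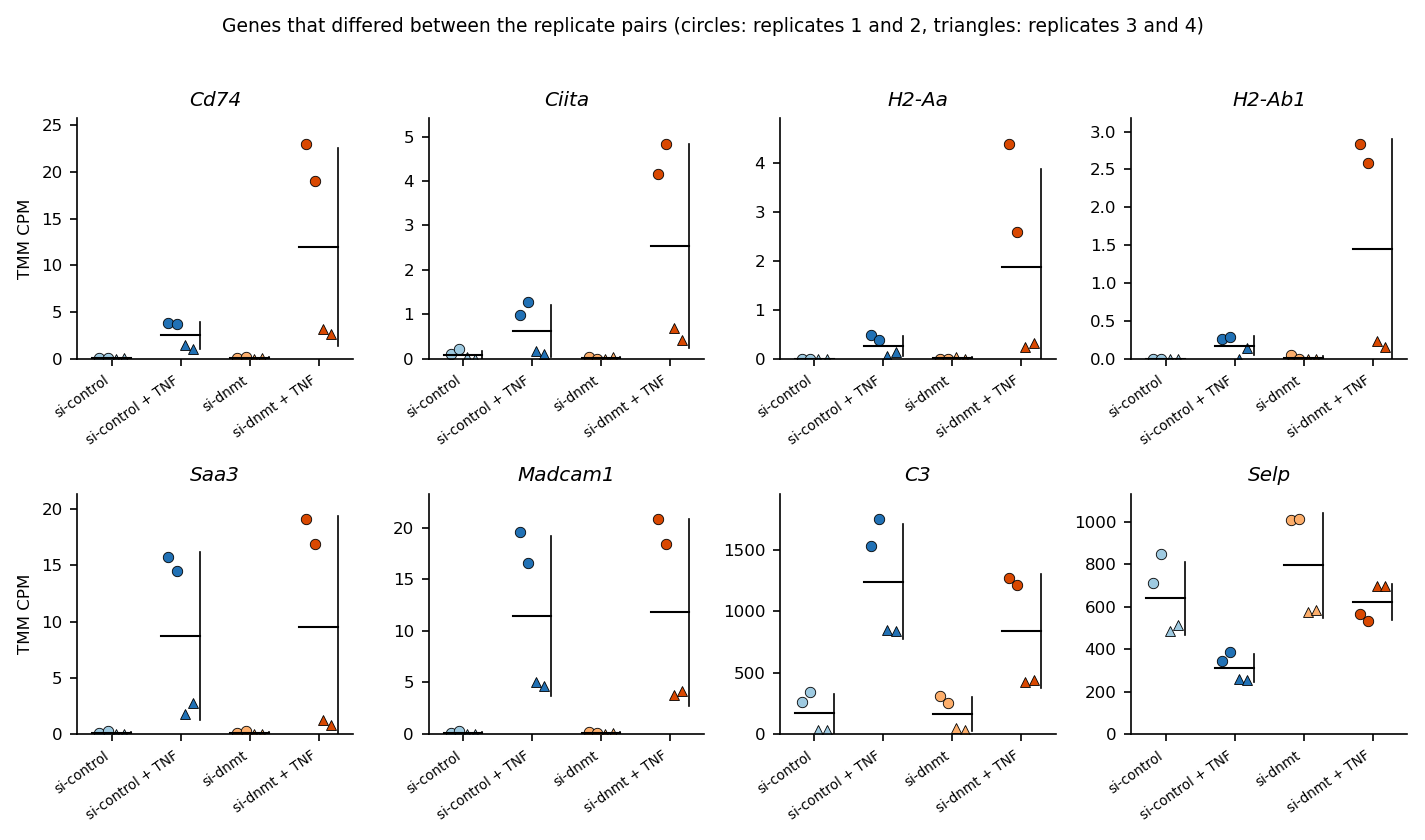
TMM-scaled CPM (linear axis) of 8 genes in si-control, si-control + TNF, si-dnmt and si-dnmt + TNF. Each library is 1 point, with circles for replicates 1 and 2, triangles for replicates 3 and 4, and line and bar for mean ± SD. In silenced cells under TNFα, Cd74 lies at 23, 19, 3.14 and 2.67 CPM in replicates 1 to 4, while Selp falls in the first set and rises in the second.

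The endothelial identity genes that passed the test were lower, and 15 did not pass it. Of 26 endothelial identity genes, 0 were higher by edgeR (0 at an unadjusted p under 0.05 and 0 by DESeq2) and 11 lower, with a median of −0.69. Vwf, the platelet-binding factor of Weibel-Palade bodies, fell from 46.5, 42.2, 26.8 and 27 to 3.11, 2.96, 2.72 and 4.37 CPM (−3.44 ± 0.30, adjusted p = 1.39e-09). Pecam1, a junctional adhesion molecule, fell from 1829, 1669, 1299.7 and 1298 to 966, 1009, 796 and 836 CPM (−0.76 ± 0.17, adjusted p = 0.00169). Cdh5, the cadherin of endothelial junctions, was at 2723, 2609, 1604 and 1536 CPM before and 1329, 1412, 991 and 1121 CPM with TNFα (−0.80 ± 0.23, adjusted p = 0.0134). The fall of Cdh5 no longer passed the test without si-dnmt replicate 1 (−0.66, adjusted p = 0.0659) or without si-dnmt replicate 2 (−0.69, adjusted p = 0.0554). The groups of these 3 genes did not overlap. Kdr, the main receptor for VEGF, fell by 0.67 on the log2 scale (adjusted p = 0.00107), Sox17, an arterial transcription factor, by 2.38 (adjusted p = 0.00421) and Ramp2, a subunit of the adrenomedullin receptor, by 0.81 (adjusted p = 0.00021). With the replicate block 20 of the 26 were lower and 1 higher. These falls went with the lower sum of the endothelial markers given above, all of which belong to this list, and for no other cell type did the sums of the treated libraries lie above or below all untreated ones.

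Of 28 genes of vascular tone and barrier, 3 were higher and 11 lower (median −0.54). Aqp1, the water channel of capillary endothelium, had the steepest fall of this list, from 56.7, 52.9, 11.2 and 19.8 to 1.65, 1.31, 0.461 and 0.617 CPM (−5.10 ± 0.56, adjusted p = 1.37e-07). Nos2, the inducible nitric oxide synthase, had the steepest rise, from 0.401, 0.556, 0.341 and 0.139 to 39.1, 42.2, 28.3 and 31 CPM (6.63 ± 0.68, adjusted p = 3.97e-08), while the endothelial enzyme Nos3 fell from 195, 185, 155 and 182 to 124, 147, 98.9 and 119 CPM (−0.55 ± 0.12, adjusted p = 0.00174). Ramp3, a receptor subunit for adrenomedullin, fell by 2.06 (adjusted p = 0.00381), and Ptges, a prostaglandin E synthase, rose from 0.089, 0.171, 0.0682 and 0.0695 to 0.504, 0.375, 1.84 and 1.29 CPM (3.29 ± 0.61, adjusted p = 0.000261). The rise of Ptges was 1.71 (adjusted p = 0.0727) in replicates 1 and 2 and 4.41 in replicates 3 and 4. With the replicate block 18 of the 28 were lower and 4 higher.

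Of 21 coagulation and fibrinolysis genes, 2 were higher and 7 lower (median −0.08), and the share higher was near the 11.5% over all genes tested. F3, the tissue factor that starts clotting, was at 4.18, 5.26, 13.7 and 10.5 CPM before and 5.45, 6.1, 24.1 and 26.7 CPM with TNFα. It did not pass the test (0.88 ± 0.61, adjusted p = 0.345), but did with the replicate block (0.75, adjusted p = 0.0188), and its change was 0.29 in the first set and 1.07 (adjusted p = 1.8e-06) in the second. Of 15 complement genes 5 were higher and 2 lower (median 0.22). Cfb and C1s1, which activate complement, rose by 3.46 ± 0.59 (adjusted p = 8.86e-05) and 3.82 ± 0.71 (adjusted p = 0.000263), and Masp1, a protease of the lectin pathway, fell from 19.2, 21, 3.99 and 3.79 to 1.42, 1.46, 0.507 and 0.36 CPM (−3.66 ± 0.79, adjusted p = 0.0012).

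In the pathways that pattern vessels more genes were lower than higher, and most did not pass the test. Of 19 NOTCH and arterial genes, 1 was higher and 6 lower (median −0.49). Notch1, a NOTCH receptor, went from 169, 159, 122 and 122 to 92.8, 96, 71.9 and 83.7 CPM (−0.73 ± 0.12, adjusted p = 3.62e-05), and Nrarp, a NOTCH target that feeds back on the pathway, from 17.7, 22.4, 10.2 and 13 to 5.45, 5.4, 2.49 and 1.54 CPM (−2.08 ± 0.40, adjusted p = 0.000329). Of 31 genes of TGF-β and BMP signalling, 2 were higher and 12 lower (median −0.34). Bmp4, a BMP ligand, went from 160.3, 184, 136 and 139 to 54.7, 55.4, 44 and 44.2 CPM (−1.64 ± 0.14, adjusted p = 9.12e-10), and Id2, a target of BMP signalling, from 73.2, 91.7, 74.8 and 83.4 to 32.7, 26.8, 21.4 and 22.3 CPM (−1.65 ± 0.21, adjusted p = 1.16e-06). These 4 genes fell in both sets, with log2 fold changes of −1.64 and −1.64 for Bmp4 and −1.46 and −1.86 for Id2.

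Of 26 matrix proteases and inhibitors, 6 were higher and 6 lower (median −0.15). Mmp9, a gelatinase, rose from 0, 0.0428, 0 and 0.243 to 3.43, 3.57, 4.7 and 4.32 CPM (5.61 ± 0.76, adjusted p = 3.45e-06, and 7.70 without si-dnmt replicate 4), and Mmp13, a collagenase, from 0.178, 0.299, 0.512 and 0.382 to 2.01, 2.58, 1.8 and 2.31 CPM (2.61 ± 0.37, adjusted p = 5.98e-06). Adamts1, a protease that cleaves versican, fell from 222, 213, 86.8 and 129.9 to 41.5, 45.1, 28 and 30.2 CPM (−2.17 ± 0.36, adjusted p = 6.18e-05). Of 27 collagens, laminins and other matrix genes, 4 were higher and 7 lower (median −0.29), and 7 were higher and 13 lower with the replicate block. Lama3 and Lamb3, chains of an epithelial-type laminin, rose by 1.83 ± 0.34 (adjusted p = 0.000284) and 2.07 ± 0.56 (adjusted p = 0.00876), and Col6a1 by 2.76 ± 0.34 (adjusted p = 9.58e-07), while Col3a1, a fibrillar collagen, fell by 2.25 (adjusted p = 5.47e-06).

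The cell cycle genes that passed the test were higher in treated cells, and 14 did not pass it. Of 29 tested, 15 were higher and 0 lower by edgeR (0 lower at an unadjusted p under 0.05 and 0 by DESeq2), with a median of 0.66, and 24 were higher with the replicate block. Mcm5, part of the replicative helicase, went from 45.2, 48.4, 48.7 and 62.3 to 103, 106, 84.5 and 89.7 CPM (0.90 ± 0.23, adjusted p = 0.0054), and Uhrf1, which brings Dnmt1 to newly replicated DNA, from 35.9, 38.9, 46.8 and 53.9 to 112, 107, 82.9 and 93.7 CPM (1.17 ± 0.27, adjusted p = 0.00262). Both rises were larger in the first set (1.16 and 1.56) than in the second (0.65 and 0.81). Of 16 genes of the DNA methylation machinery, 2 were higher and 3 lower (median 0.02), and the share higher was near the 11.5% over all genes tested. Dnmt3b, a methyltransferase that acts on unmethylated DNA, was at 7.08, 8.04, 6.82 and 6.36 CPM and 4.17, 4.93, 3.97 and 5.24 CPM (−0.63 ± 0.18, adjusted p = 0.0109), and Tet2, which oxidizes methylcytosine, at 22.7, 25.5, 19.1 and 16.4 and 15.5, 13.7, 13.1 and 16 CPM (−0.52 ± 0.14, adjusted p = 0.00715). In replicates 3 and 4 alone neither was called (adjusted p = 0.068 for Dnmt3b and 0.127 for Tet2).

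Of 25 cell death and inflammasome genes, 11 were higher and 1 lower (median 0.25). Nlrp3, the inflammasome sensor, rose from 0, 0.0855, 0.273 and 0.243 to 4.62, 4.27, 7.24 and 6.12 CPM (5.07 ± 0.42, adjusted p = 8.02e-10), Il18, a cytokine that inflammasomes process, by 2.32 ± 0.39 (adjusted p = 6.78e-05), and Fas, a death receptor, from 9.79, 10.6, 14.3 and 12.2 to 26.9, 29.4, 51.7 and 48.7 CPM (1.74 ± 0.23, adjusted p = 2.92e-06). Of 23 antioxidant and NADPH oxidase genes, 5 were higher and 0 lower by edgeR (0 lower at an unadjusted p under 0.05 and 0 by DESeq2), with a median of 0.08, and with the replicate block 9 were higher and 2 lower. Cyba, a subunit of NADPH oxidases, went from 37.5, 35.3, 38.6 and 42.5 to 149, 131, 109.6 and 82.2 CPM (1.61 ± 0.17, adjusted p = 5.95e-08), and Txn1, thioredoxin, from 121, 123, 160.1 and 184 to 249.5, 221, 284 and 219 CPM (0.73 ± 0.16, adjusted p = 0.0015). Of 19 sterol synthesis genes 0 were higher and 0 lower by edgeR, although all 19 had a negative log2 fold change and the median was −0.46. At an unadjusted p under 0.05, 1 was lower, DESeq2 called 0, and the fit with the replicate block called 10 lower.

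**Figure D3:**
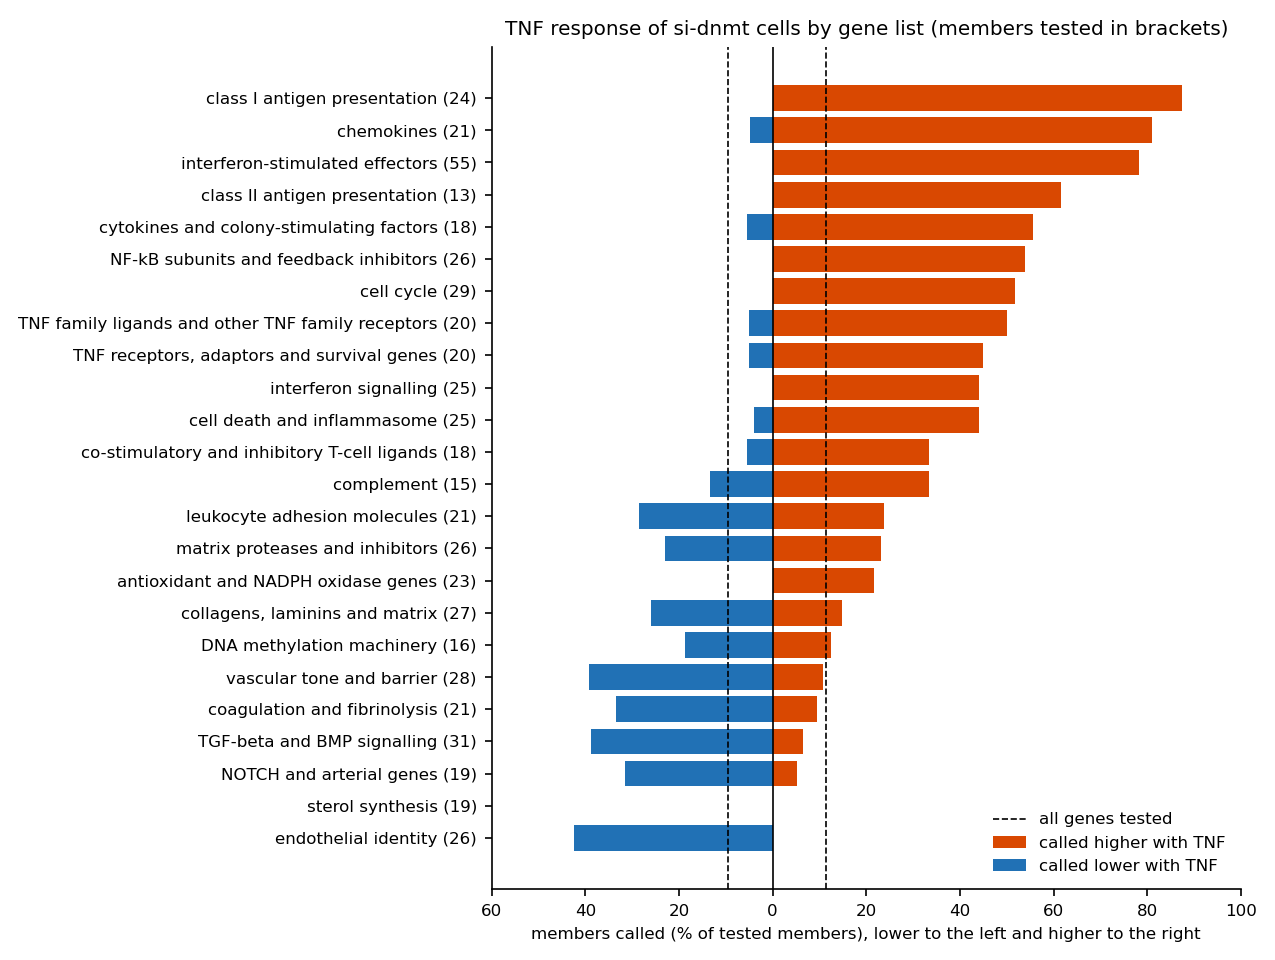
Percent of tested members called higher (right) and lower (left) in si-dnmt + TNF against si-dnmt for 24 gene lists. The dashed lines mark the percent over all 15250 genes (11.5% higher and 9.54% lower). The bars of class I genes (21 of 24 higher) and chemokines (17 of 21) reach farthest to the right and the bar of endothelial identity genes (11 of 26) farthest to the left.

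The largest rises by rule were led by Pglyrp2, and they included the class II genes Cd74, Ciita, H2-Aa and H2-Ab1 given above. Pglyrp2, an amidase that cuts bacterial peptidoglycan, was at 0, 0.0855, 0 and 0 CPM in si-dnmt and 14.6, 13.4, 7.38 and 7.71 CPM in si-dnmt + TNF, a 564-fold difference in counts (95% exact counting interval 156 to 4661). Pglyrp3 of the same family was at 0 in every untreated library and at 1.14, 0.892, 1.15 and 0.874 CPM with TNFα, at least 8.67-fold higher against a floor of 3 counts per library. Spib, an ETS transcription factor known from lymphocytes, went from 0, 0.0428, 0.102 and 0 to 9.75, 9.06, 3.27 and 3.86 CPM, 170-fold (66.1 to 627), and H2-M2, a non-classical class I gene, from 0, 0.0855, 0 and 0.0695 to 4.99, 5.21, 1.06 and 0.668 CPM, 78.9-fold (30.5 to 292). The treated libraries of Pglyrp2, Pglyrp3, Spib and H2-M2 were above every untreated library. Among the largest falls were Lmcd1, a LIM-domain cofactor, from 5.65, 4.19, 1.91 and 2.88 to 0, 0.0469, 0.0461 and 0.0514 CPM, a 98.4-fold difference (33.4 to 479), and Chodl, a lectin-domain membrane protein, from 2.18, 1.8, 0.341 and 0.382 to 0, 0.0469, 0 and 0 CPM, 90.8-fold (16.0 to 3619). P2rx2, an ATP-gated channel, fell 21.2-fold (8.88 to 66.5). Fitted log2 fold changes of these low genes moved when 1 library was left out: Pglyrp2 from 8.74 to 10.84 without si-dnmt replicate 2, Spib from 7.20 to 8.39 without si-dnmt replicate 3, Chodl from −6.03 to −7.63 without si-dnmt + TNF replicate 2 and P2rx2 from −4.27 to −5.05 without si-dnmt + TNF replicate 1. Of the more abundant ones, Tmprss11e, a serine protease, fell from 21.3, 18.3, 10.2 and 14.2 to 0.916, 1.17, 1.34 and 1.54 CPM (−3.68 ± 0.33, adjusted p = 2.7e-09) and Kirrel3, an adhesion molecule, from 11.6, 14, 4.3 and 5.42 to 0.961, 0.845, 0.231 and 0.36 CPM (−3.86 ± 0.42, adjusted p = 9.7e-08). Frmpd1, Cttnbp2, Sparcl1, Pcdh20 and Galnt15 completed the 12 falls, with log2 fold changes of −4.48, −4.37, −3.87, −3.71 and −3.67 (adjusted p = 2.72e-07, 0.000327, 0.0128, 0.000539 and 2.83e-05). Without 1 library Frmpd1 was at −5.12 without si-dnmt + TNF replicate 1, Sparcl1 at −5.27 without si-dnmt + TNF replicate 1 and Galnt15 at −3.09 without si-dnmt replicate 1. Each of the genes with values here was also called in control cells with the same sign.

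The response was then set beside that of cells given control siRNA. There, 4688 genes were called (30.7%), 2461 higher (16.1%) and 2227 lower (14.6%). How far this count lay above the 3212 of silenced cells depended on the fit. With the contrast's libraries alone, 3146 genes were called in control and 2973 in silenced cells. In replicates 1 and 2 alone the counts were 5715 and 5428, and in replicates 3 and 4 alone 6742 and 3813. The replicate block gave 6620 and 5234. Of the 3212 genes called in silenced cells, 2533 (78.9%) were also called in control cells with the same sign, which is 54.0% of the control calls. A further 678 were called in silenced cells alone, 635 of them with the same sign in control cells. Across the 15250 genes, which are not independent replicates, the log2 fold changes correlated with Pearson's r = 0.83 and Spearman's rho = 0.75. Pik3ap1, an adaptor of phosphoinositide 3-kinase, was the 1 gene called in opposite directions (−0.55, adjusted p = 0.0309, in silenced cells and 0.56, adjusted p = 0.0216, in control cells). Its call in silenced cells was lost without si-dnmt replicate 1, si-dnmt replicate 2, si-dnmt replicate 3, si-dnmt replicate 4, si-dnmt + TNF replicate 3 or si-dnmt + TNF replicate 4, with values from −0.56 to −0.45 (adjusted p = 0.0551 to 0.113).

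Over the genes that changed at least 2-fold on average, medians were smaller in silenced cells. Among 748 genes that were called higher by at least 2-fold on the average of both responses, the median log2 fold change was 1.57 in silenced and 1.91 in control cells, and 75.8% rose more in control cells (66.3% in replicates 1 and 2, 73.9% in replicates 3 and 4). These genes were already higher in silenced than in control cells without cytokine, by a median of 0.76 on the log2 scale, and by 0.33 with TNFα. Among 629 genes lower on average, the medians were −1.38 and −1.59, and 66.6% fell more in control cells (50.2% and 78.3% by set). No test was made over these genes. The median of class II antigen presentation was larger in silenced cells (given below).

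The difference between both responses, tested gene by gene as an interaction, was called for 5 genes (0.0328% of those tested), 4 with a smaller rise in silenced cells and 1 with a smaller fall. At an unadjusted p under 0.05 there were 1010 genes (6.62%). Vcam1 had an interaction of −1.02 ± 0.15 (adjusted p = 0.00556). In control cells it went from 44.5, 43.5, 49.8 and 49.6 to 842, 839, 772 and 752 CPM (log2 fold change 4.10), so that silenced cells started 1.28 higher on the log2 scale (adjusted p = 5.67e-09) and with TNFα were 0.25 higher (adjusted p = 0.103), which did not pass the test. The interaction was −0.92 in replicates 1 and 2 and −1.10 in replicates 3 and 4, and it was called without any single one of the 16 libraries. In a fit of these 16 libraries alone its adjusted p was 0.0742.

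Zbp1, a sensor of Z-form nucleic acids that can start necroptosis, had the largest of the 5 interactions, −2.40 ± 0.41 (adjusted p = 0.015). It was at 35.1, 38.2, 10.5 and 13 CPM in si-dnmt and 128, 146, 92.6 and 90.2 CPM in si-dnmt + TNF, against 3.43, 2.76, 3.87 and 2.06 CPM in si-control and 73.8, 89.6, 71.4 and 68.8 CPM in si-control + TNF. As with Vcam1, the groups stood farthest apart without cytokine (2.99) and the siRNA difference with TNFα was 0.59 (adjusted p = 0.126). The interaction was −2.82 and −1.59 in the sets, and its call was lost without si-dnmt + TNF replicate 3 (−2.31, adjusted p = 0.0538) or replicate 4 (−2.30, adjusted p = 0.0552) and in the fit of the 16 libraries alone (adjusted p = 0.206).

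The other interactions were smaller. Slc16a10, a transporter of aromatic amino acids, had log2 fold changes of 0.27 in silenced cells and 1.08 in control cells (interaction −0.80 ± 0.14, adjusted p = 0.015), and its call was lost without si-dnmt replicate 3 or si-dnmt + TNF replicate 1, 3 or 4 (−0.79 to −0.77, adjusted p = 0.0521 to 0.0552). Ascc3, a helicase of the activating signal cointegrator complex, stood at 0.31 and 1.02 (interaction −0.70, adjusted p = 0.0338). Smarca2, a chromatin-remodelling ATPase, stood at −0.25 and −0.86 (interaction 0.60, adjusted p = 0.0338). The call of Ascc3 was kept only without si-control replicate 4, si-control + TNF replicate 1 or si-dnmt replicate 4, and ran from −0.73 to −0.65 (adjusted p = 0.0526 to 0.113) without each of the other 13 libraries. The call of Smarca2 was kept only without si-control replicate 4 or si-control + TNF replicate 1 or 2, and ran from 0.57 to 0.64 (adjusted p = 0.0502 to 0.113) without each of the other 13. In the fit of the 16 libraries alone these 3 genes were not called either, and 0 genes were called by edgeR in that fit, with 913 at an unadjusted p under 0.05.

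**Figure D4:**
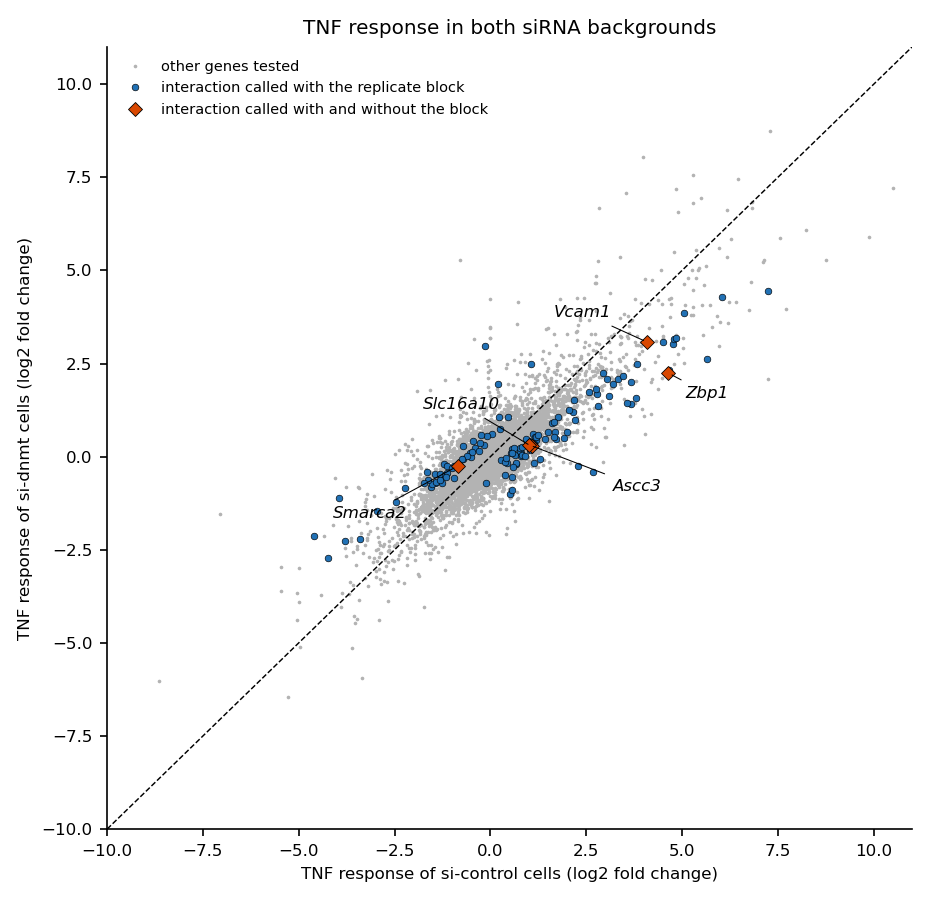
Log2 fold change with TNFα in control cells (x axis) and in silenced cells (y axis) for 15250 genes, with 135 genes called in the interaction with the replicate block in blue, the 5 called without it as orange diamonds, and the line of equal response dashed. Most blue points lie between the dashed line and the horizontal axis, where the response of silenced cells is the smaller, as for 120 of the 135.

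With the replicate number as a block, 135 genes were called in the interaction (0.885% of those tested), 51 positive (0.334%) and 84 negative (0.551%), and DESeq2 called 53. Of the 135, 120 had the smaller response in silenced cells. All 135 had the same sign in both sets, but they were picked by a fit to both sets together. Their equal sign therefore does not show that the sets agree. Across all genes the sets shared little, with a correlation of the interaction of 0.16 over genes, and 91 genes were called alike in both sets against 9 called oppositely. In replicates 3 and 4 alone, where 8.05% of genes were called, 15 of 27 genes fixed by name were called in the interaction, 14 of them negative. In replicates 1 and 2 alone, where 1.97% were called, 3 of the 27 were called and all 3 were negative. The examples in the next sentences, apart from Cx3cl1, Irf5, Mmp13, Ramp2 and Col3a1, were chosen after their values were seen. Ubd, the ubiquitin-like protein FAT10, went from a mean of 3.68 to 79.8 CPM in silenced cells and from 0.257 to 40.3 CPM in control cells (interaction −2.80, adjusted p = 0.488, and 0.00553 with the block). Cx3cl1 (interaction −0.96, adjusted p = 0.235 without and 0.00464 with the block), Irf5 (−1.73, 0.159 and 0.0368) and Mmp13 (−3.03, 0.0583 and 0.0211) also rose less in silenced cells. Cx3cl1 and Irf5 were nevertheless higher in silenced than in control cells, by 1.86 and 2.48 on the log2 scale without cytokine. With TNFα they were still higher, by 0.90 (edgeR adjusted p = 0.000584) and 0.75 (adjusted p = 0.0204). Mmp13 ended lower in silenced cells, at a mean of 2.18 against 7.89 CPM in control cells (−1.86, adjusted p = 4.69e-05).

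Some genes went the other way. Of the 13 genes of class II antigen presentation, 8 were higher in silenced and 3 in control cells, with medians of 3.65 and 1.99. Their interaction was positive for 11 of 13 (median 1.09), with 0 called by edgeR (1 at an unadjusted p under 0.05) and 0 by DESeq2. With the replicate block 1 was called, Ifi30, a reductase that prepares antigens (adjusted p = 0.569 without and 0.0146 with the block), named after its values were seen. The counts of Cd74 rose 42.8-fold (18.1 to 133) in control cells, against 211-fold in silenced cells, and its interaction was 2.27 (adjusted p = 0.983). H2-Aa and H2-Ab1 were at 0 in every si-control library, with 23 and 15 counts in all under TNFα, and were not called in control cells (adjusted p = 0.251 and 0.301). Il12rb1, a subunit of the receptors for interleukins 12 and 23, rose from a mean of 2.96 to 16.5 CPM in silenced cells and from 4.74 to 9.88 CPM in control cells (interaction 1.43, adjusted p = 0.0608 without and 0.00958 with the block). Bdkrb2, the bradykinin B2 receptor, rose from 1.85 to 7.24 CPM in silenced cells and was at 1.01 and 1.16 CPM in control cells (interaction 1.75, adjusted p = 0.261 and 0.0278). Other positive interactions were smaller falls: Nmb, a bombesin-like peptide, fell by 2.13 in silenced and 4.61 in control cells (0.498 and 0.00148), Col3a1 by 2.25 and 3.79 (0.265 and 0.0146) and Ramp2 by 0.81 and 1.56 (0.261 and 0.0277).

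Genes that supply and load amino acids had mostly negative interactions, none of which passed the test by edgeR without the block. Both lists were drawn up after their values were seen and are given as a description. Negative interactions were not particular to them. The interaction was positive for only 3 of 55 interferon-stimulated effectors (median −0.57), whose median TNFα response was 0.96 in silenced and 1.56 in control cells. By edgeR 1 of the 55 was called without the block and 8 with it, and 18 were negative at an unadjusted p under 0.05. For sterol synthesis it was positive for 0 of 19 (median −0.48, 0 called). Of 20 cytosolic aminoacyl-tRNA synthetases, which charge tRNAs with amino acids, 10 were higher and 1 lower in silenced cells (median 0.34), against 18 higher and 0 lower in control cells (median 0.82). The interaction was negative for 19 of the 20, with a median of −0.50, against −0.00 over all genes. By edgeR 0 of them were called in the interaction without the block (12 at an unadjusted p under 0.05, 4 by DESeq2) and 7 with it. Of 19 genes of amino acid synthesis and transport, 2 were higher and 1 lower in silenced cells (median 0.44) and 16 higher in control cells (median 1.30), and the interaction was negative for all 19 (median −0.84), with 0 called by edgeR without the block (9 at an unadjusted p under 0.05, 2 by DESeq2) and 8 with it. Over all genes tested 11.5% were higher in silenced and 16.1% in control cells, so that the 2 of 19 in silenced cells were near the share over all genes. The medians in the sets were −0.27 and −0.73 for the synthetases and −0.52 and −1.08 for synthesis and transport. Without cytokine the median difference between silenced and control cells was 0.15 and 0.01.

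Asns, asparagine synthetase, went from a mean of 39.4 to 56.3 CPM in silenced cells (log2 fold change 0.51, adjusted p = 0.127) and from 41.1 to 155 CPM in control cells (1.92, adjusted p = 6.16e-07), with an interaction of −1.41 (adjusted p = 0.159, and 0.0351 with the block). By edgeR the rise of Asns in silenced cells was called in each set alone (0.55, adjusted p = 0.00115, and 0.49, adjusted p = 0.000133) but not with the block (adjusted p = 0.0861). Slc7a11, the cystine transporter, changed by 0.66 (adjusted p = 0.31) and 1.50, and Iars, the isoleucyl-tRNA synthetase, by 0.30 (adjusted p = 0.105) and 1.13. The rise of Slc7a11 in silenced cells was called with the block (0.61, adjusted p = 0.00117) and in replicates 1 and 2 alone (0.48, adjusted p = 0.00122). The interactions of Slc7a11 and Iars were −0.84 (adjusted p = 0.908 without and 0.0421 with the block) and −0.83 (0.15 and 0.0134). For Asns and Slc7a11 the levels without cytokine (39.4 and 41.1 CPM for Asns, 169 and 223 CPM for Slc7a11) were closer to each other than the levels with TNFα (266 and 631 CPM for Slc7a11). Iars was already higher in silenced cells without cytokine (0.40, edgeR adjusted p = 0.0308), as was the transporter Slc7a1 (0.70, adjusted p = 0.000292). Each was the 1 member of its list called higher there.

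**Figure D5:**
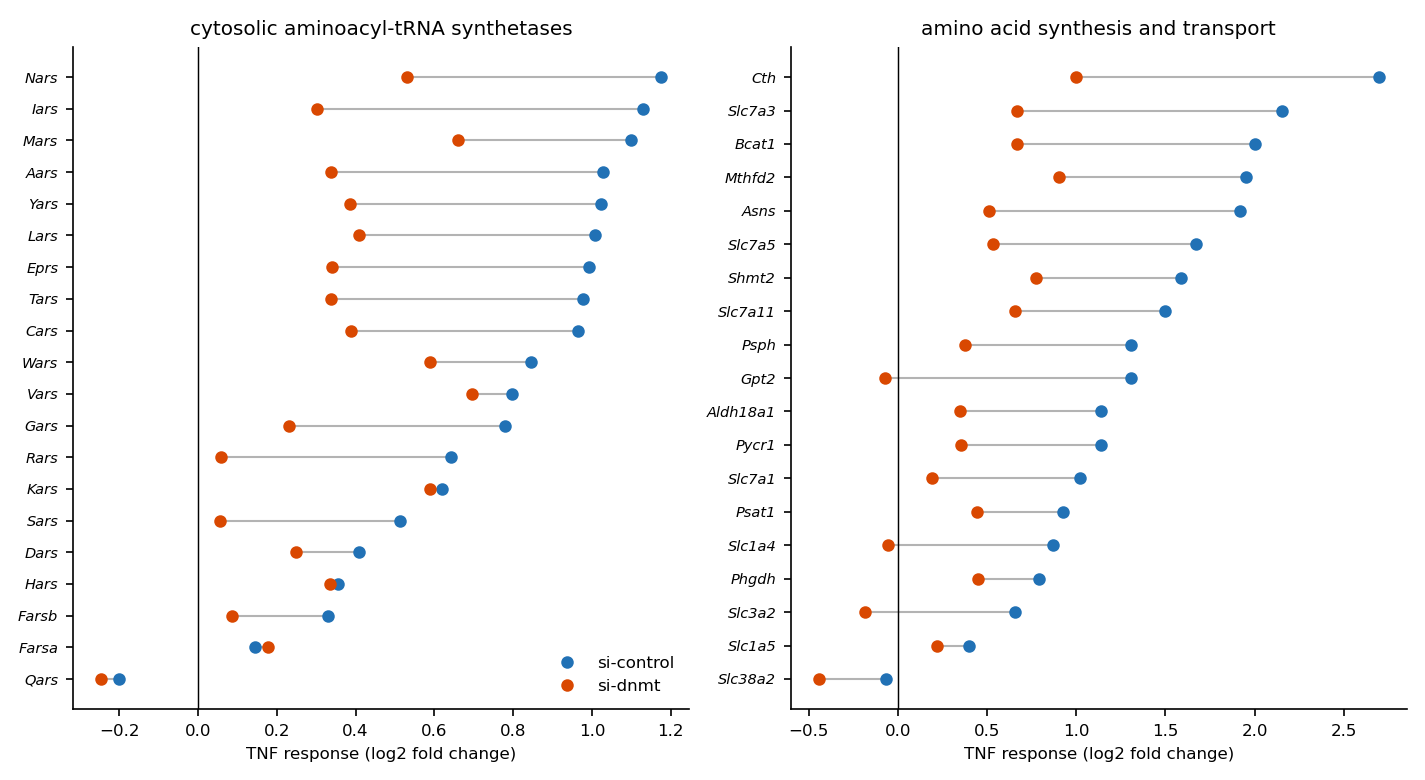
Log2 fold change with TNFα in control cells (blue) and in silenced cells (orange) for 20 aminoacyl-tRNA synthetases and 19 genes of amino acid synthesis and transport, with 1 pair of dots per gene. The orange dot lies to the left of the blue one for 19 of 20 and for 19 of 19 genes.

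The sets of replicates did not always give the same direction. In the response of silenced cells, 17 genes were called higher in one set and lower in the other, against 2887 called alike, and the log2 fold changes correlated with r = 0.75 across 14716 genes tested in both. These 17 were found by their values. Besides Selp, they included Jag1, a NOTCH ligand, at 0.37 in replicates 1 and 2 and −0.35 in replicates 3 and 4, Apln, the apelin precursor, at 0.42 and −0.50, Igf1, a growth factor, at 0.77 and −1.31, and Mxd1, a MAX-binding repressor, at −0.95 and 0.87. None of the 17 was called over all 8 libraries.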

How the data were processed

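Bulk RNA of the Veravec line was sequenced in 32 libraries, 4 in each of 8 groups. The deposited values used here are the authors' raw counts per gene, merged by symbol (54429 symbols), which were identical to the tables of single libraries. The submitters' processing notes name cutadapt 4.9, FastQC 0.12.1, MultiQC 1.27.1, featureCounts and DESeq2. The sources used here name no aligner, genome build, annotation or strand setting. Antisense and overlapping genes therefore cannot be told apart from their partners.

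Counts were analysed with edgeR 4.0.16 in R 4.3.3. Genes passing filterByExpr at a minimum count of 10 were kept (15250), TMM scaling was applied, 8 group means were fitted to all 32 libraries with glmQLFit, and glmQLFTest was used two-sided with Benjamini-Hochberg adjustment. The median of total counts was 20859668. A gene at 0 in every library of a group was given a bound from a floor of 3 counts per library, and a gene with at most 3 counts in each library a ratio of summed counts with a 95% exact interval, which cover counting error only. The same steps were run on simulated counts that lacked the split into sets of replicates, so that run cannot show how the split affects the calls. Lists are described by counts of called members and medians, with no set test.

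The members and lists were chosen with earlier results of these data known. Genes to be named were drawn from 27 fixed genes, the 12 largest rises and the 12 largest falls among called genes whose groups did not overlap and whose higher group had a mean of at least 1 CPM, up to 8 called interactions in each direction, the leading called members of each list, and genes called in opposite directions in both responses. Not every leading list member is printed. Among those without a printed response, Plat, F5, Fli1, Hes1, Nrp1, Inhbb, Top2a, Ccne2, Cybb, Nox1 and Tie1 lost their call on leaving out some single library. Over the 126 named genes, 21 results (TNF response or interaction) changed their call on leaving out 1 library. Names of unnamed gene models were left out. Others are said to be chosen after their values were seen.

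Replicate numbers were checked for pairing by the correlation of deviations from group means. Same-numbered libraries of different groups correlated at 0.37 to 0.54, libraries of the other number in the same set at 0.30 to 0.56, and libraries of the other set at −0.53 to −0.31. Every same-number correlation exceeded 0.1, and blocked values of the genes named by rule are given where they change a call. Alternatives were DESeq2 1.42.0, DESeq2 size factors, no filter, the contrast's libraries alone, the replicate block, each set alone, each library left out, gene identifiers in place of symbols, and a 2-fold minimum. Values of 1 of the genes named by rule are not reported here.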

Additional observations from a re-analysis of the deposited data

Results flagged for a closer look

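In 5 genes the TNFα response differed between silenced and control cells by the test of the difference itself, the interaction in edgeR's quasi-likelihood fit with Benjamini-Hochberg adjustment. The interaction was −2.40 for Zbp1, −1.02 for Vcam1, −0.80 for Slc16a10, −0.70 for Ascc3 and 0.60 for Smarca2. Of these, only the call of Vcam1 was kept without any single one of the 16 libraries. In a fit of these 16 libraries alone, 0 genes were called.

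Within groups of 4, single libraries stood apart from the other 3 by Dixon's test. Chance marks about 1 in 20 groups, and 13 of 260 groups were marked. In si-dnmt, Sele was at 54 CPM in replicate 1 against 63.5 to 65.5 CPM in the others, and Ccl5 was at 7.05 CPM in replicate 4 against 5.3 to 5.39 CPM. Icosl was at 0.478 CPM in replicate 3 against 0.0445 to 0.104 CPM, and Il27 at 0.239 CPM in the same library against 0.0695 to 0.089 CPM. Ltb was at 0 in replicate 1 against 0.171 to 0.205 CPM. Where the other 3 libraries were at 0, Pglyrp2 was at 0.0855 CPM in replicate 2, H2-Aa at 0.0341 CPM and Cybb at 0.0682 CPM in replicate 3, and H2-Ab1 at 0.0445 CPM in replicate 1. In si-dnmt + TNF, Lmcd1 was at 0 in replicate 1 against 0.0461 to 0.0514 CPM, Chodl at 0.0469 CPM in replicate 2 against 0, and Cybb at 0.422 CPM in replicate 2 against 0.0461 to 0.0916 CPM. Most of these are differences of a few counts. The total count of si-dnmt + TNF replicate 4 was 17952470, against 20051900 to 20427100 in the other 3 libraries of the group.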

How the results depend on the processing

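The count of genes that TNFα changed in silenced cells, 3212 (1757 higher and 1455 lower), stayed within 1.5 times under DESeq2, DESeq2 size factors, no filter, the contrast's libraries alone, gene identifiers and replicates 3 and 4 alone. With the replicate block it was 5234 (2720 higher and 2514 lower), in replicates 1 and 2 alone 5428 (2915 and 2513), and with a 2-fold minimum 991 (582 and 409). Leaving out 1 library gave 2301 to 2995 (1278 to 1692 higher and 1023 to 1379 lower). In control cells, 4688 genes became 1462 (767 and 695) with a 2-fold minimum and 3946 to 4496 without 1 library, and the 2461 higher genes became 1630 with the contrast's libraries alone.

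The interaction was the least stable count. Against 5 genes (1 higher and 4 lower), the replicate block called 135 (51 and 84), replicates 1 and 2 alone 303 (65 and 238), replicates 3 and 4 alone 1222 (495 and 727), DESeq2 53 (11 and 42), no filter 2 (0 and 2), a 2-fold minimum 2 (0 and 2), and the 16 libraries alone 0 (0 and 0, with 913 at an unadjusted p under 0.05). DESeq2 size factors left 0 higher. Leaving out 1 library gave 1 to 13 genes, 0 to 1 higher and 1 to 12 lower: 3 without si-control replicate 3, 8 without si-control replicate 4, 13 without si-control + TNF replicate 1, 3 without si-control + TNF replicate 3, 3 and 2 without si-dnmt replicates 2 and 3, and 2, 3, 1 and 1 without si-dnmt + TNF replicates 1 to 4. The cause was not tested.

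Among the 126 named genes, Selp reversed, to 0.26 in replicates 3 and 4 alone. In the TNF response of silenced cells the replicate block changed 1 call of these genes, F3 (0.75, adjusted p = 0.0188). In the interaction it changed 8, all of them gained: Cx3cl1 (−0.95), H2-Q6 (−1.92), H2-Q7 (−1.28), Irf5 (−1.70), Mmp13 (−3.08), Pik3ap1 (−1.11), Ramp2 (0.73) and Col3a1 (1.41), with adjusted p from 0.00464 to 0.0368. Of the values computed for named genes under the alternatives (the TNF response of silenced cells, and the interaction for part of the genes), 2599 kept direction and side of the threshold, 127 lost and 23 gained the call. The NF-κB consensus in place of the exact letters was held by 4.51% of all promoters searched, and the share among responding genes was not given, for the reason stated above. Depth limits the size of the largest changes, whose lower group held few or no counts.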
